A study of Mus musculus with 12 samples.

Results

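The genes described here are 10 members of the mammalian circadian clock, read in RNA sequencing of primary mouse hepatocytes, the parenchymal cells of the liver. They are Clock, Npas2, Per1, Per2, Per3, Cry1, Nr1d1, Nr1d2, Dbp and Tef. They were chosen by symbol from a list of clock genes, with earlier results of these data known, among the 55414 gene identifiers of the count table. Each matched 1 identifier, and all 10 were among the 14919 genes that passed the filter on low counts. The 12 libraries form 4 groups of 3: Hnf4a knockout (KO) cells with MJ041, KO cells with DMSO vehicle, wild-type (WT) cells with MJ041, and WT cells with DMSO vehicle. HNF4A is a nuclear receptor that maintains the gene programme of hepatocytes, and the series title presents MJ041 as a candidate ligand in a study of HNF4A dysfunction in sepsis. MJ041 is known here by its code name alone. The labels do not give the allele or the Cre of the knockout, the age or sex of the mice, the dose, the length of treatment, the time of day or the time in culture. Nothing in them says that replicates came from separate animals, and the p-values therefore cover only the spread between these samples, which may be technical.

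The libraries held 16740761 to 17902832 counts, and levels are given as counts scaled to library size (CPM). Hnf4a itself, the check of the genotype, had 65.1 ± 3.57 CPM in KO cells and 124 ± 12.6 CPM in WT cells with vehicle (SD, n = 3 each). With MJ041 it had 67.5 ± 8.08 CPM in KO cells and 162 ± 18.6 CPM in WT cells. Hnf4a RNA was thus lower but not absent in KO cells, and counts over the whole gene do not show how much of it was intact. A list of 8 hepatocyte markers summed to 22695 to 26532 CPM in KO cells and 48733 to 52921 CPM in WT cells with vehicle. Most of each sum was Alb, and no marker was at 0 in any library. Of the 8, 1 rose, 4 fell and 3 did not pass in KO cells with vehicle, where 27.5% of all tested genes rose and 26.9% fell. All 10 cell cycle markers rose in KO cells, with sums of 746 to 877 CPM in KO cells and 156 to 170 CPM in WT cells with vehicle. Kupffer cell markers, 11 genes of liver macrophages, summed to 452 to 503 CPM in KO cells and 239 to 480 CPM in WT cells with vehicle. Stellate cell and fibroblast markers, 12 genes, summed to 140 to 198 CPM in KO cells and 129 to 147 CPM in WT cells with vehicle. Cholangiocyte markers, 8 genes of bile duct cells, summed to 515 to 680 CPM in KO cells and 384 to 595 CPM in WT cells with vehicle. Of the 7 tested, 4 rose and 1 fell in KO cells, against 27.5% and 26.9% of all genes, with a median log2 fold change of 1.30. The part of cell division and of bile duct cell markers in the clock gene differences between genotypes was not tested. In bulk RNA, fewer cells of a type and less RNA per cell cannot be told apart.

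The clock is a feedback loop of transcription that runs in nearly every cell and turns once in about a day. BMAL1 (the product of Arntl) pairs with CLOCK or with its relative NPAS2, binds E-boxes and drives the Per and Cry genes, the genes of the nuclear receptors REV-ERBα (Nr1d1) and REV-ERBβ (Nr1d2), and the genes of the PAR bZIP factors DBP and TEF. PER and CRY proteins then block BMAL1, while REV-ERBs repress Arntl, Npas2, Clock and Cry1 through elements that the activating ROR receptors also bind. In liver this loop times the transcription of genes for glucose, lipid, bile acid and drug metabolism. Members of the loop peak at different times of day, so in cells collected once, a shift of phase and a change of mean level cannot be told apart.

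These rhythms act through short promoter elements, so the promoter windows of the members were searched for them. The windows are RefSeq sequences of 300 bases, from 250 before to 50 after a gene's start, in build GRCm38.p6, which is not the build the authors aligned to. A window was found for 9 of the 10 members, 13 windows in all, and Per2 had none in the table. The motifs, searched on both strands, were the E-box CACGTG, the variant E-box CACGTT, the D-box TTANGTAA that PAR bZIP factors bind, the ROR and REV-ERB element as TAGGTCA or TGGGTCA, an HNF4 motif CAAAGTCCA and the cAMP element TGACGTCA. The stretches below are the 6 member stretches with a match and the match in Arntl, each of 100 bases, 5′ to 3′ on the gene's strand, with the motif or its reverse complement in capitals.
Per1 (chr11:69098736-69098835, plus strand): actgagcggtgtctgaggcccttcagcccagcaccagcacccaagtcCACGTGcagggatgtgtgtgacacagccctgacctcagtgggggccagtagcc
Cry1 (chr10:85185072-85185171, minus strand): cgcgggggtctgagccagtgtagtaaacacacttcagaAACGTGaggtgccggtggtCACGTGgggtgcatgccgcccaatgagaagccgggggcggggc
Nr1d1 (chr11:98775353-98775452, minus strand): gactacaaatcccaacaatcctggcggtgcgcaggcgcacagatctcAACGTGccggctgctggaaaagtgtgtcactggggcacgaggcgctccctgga
Tef, first start (chr15:81802499-81802598, plus strand): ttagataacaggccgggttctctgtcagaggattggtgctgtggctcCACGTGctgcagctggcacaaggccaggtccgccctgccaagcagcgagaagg
Tef, second start (chr15:81811229-81811328, plus strand): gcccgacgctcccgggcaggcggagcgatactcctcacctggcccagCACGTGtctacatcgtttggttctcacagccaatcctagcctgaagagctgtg
Per3 (chr4:151044794-151044893, minus strand): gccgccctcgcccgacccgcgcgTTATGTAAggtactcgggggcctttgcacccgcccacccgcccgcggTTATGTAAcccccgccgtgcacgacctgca
Arntl, second start (chr7:113207461-113207560, plus strand): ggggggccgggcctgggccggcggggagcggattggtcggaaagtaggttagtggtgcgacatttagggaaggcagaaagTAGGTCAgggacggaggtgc

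The E-box lay 166 bases before the start of Per1, 60 before that of Cry1, and 127 and 138 before the first and second starts of Tef. Thus 3 of the 9 members with a window held it, in 4 of their 13 windows, and 7.15% of all 32851 windows in the table did. The variant E-box lay 28 bases before the start of Nr1d1 and 79 before that of Cry1, which is 2 of the 13 member windows, and 4.685% of all windows held it. Per3, the 1 member window with a D-box, had 2, at 205 and 158 bases before its start, against 2.323% of windows with at least 1. No member window held the ROR and REV-ERB element, which 2.606% of windows held as TAGGTCA and 3.979% as TGGGTCA, and the Arntl match lay 30 bases after the start. The HNF4 motif and the cAMP element were in no member window, with 0.475% and 1.79% of all windows holding them. A match describes the letters of the window and is neither a binding site nor a cause of a difference.

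**Figure D1:**
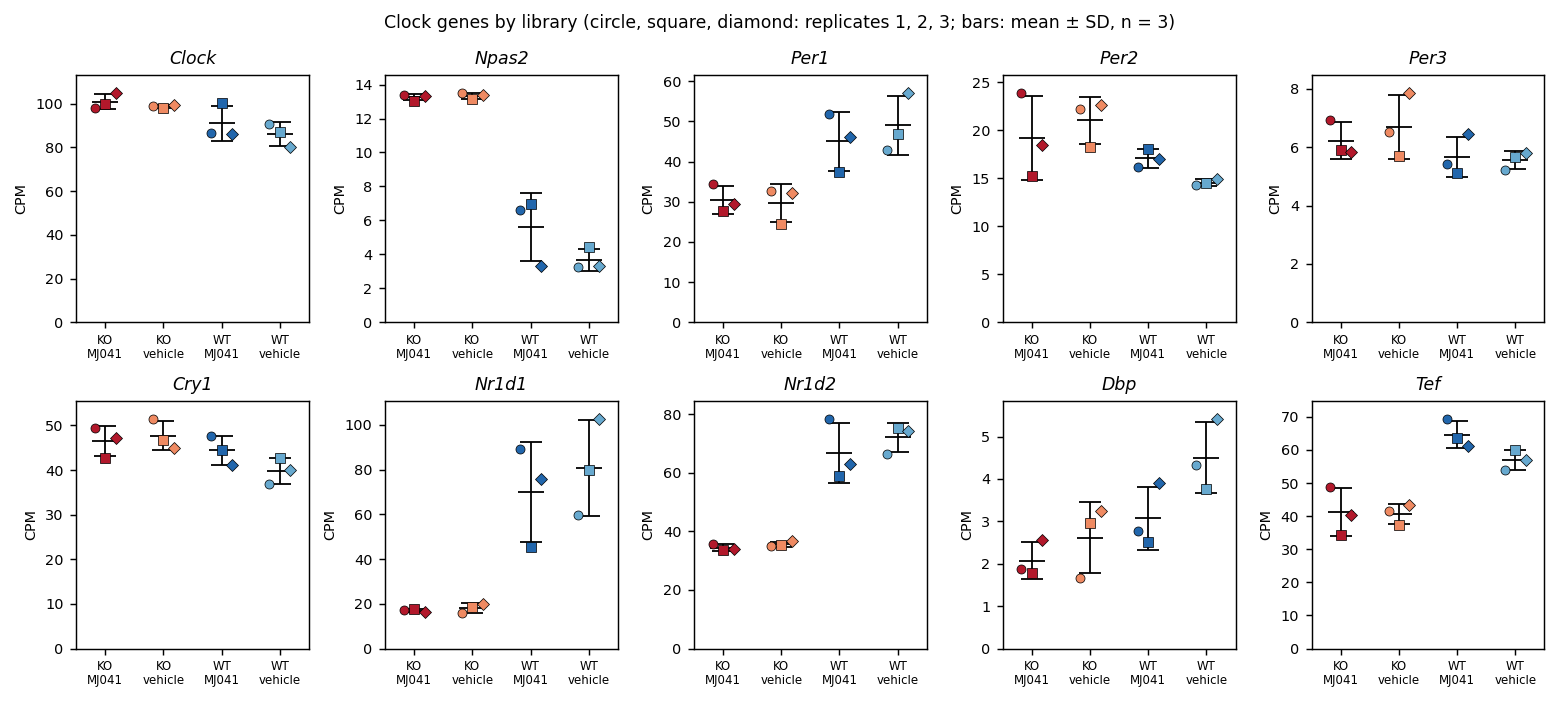
The 10 clock genes in each library, in CPM on an axis from 0, with 1 panel a gene and the groups in the order KO with MJ041, KO with vehicle, WT with MJ041, WT with vehicle. Points are libraries and bars are mean ± SD (n = 3); Nr1d1 lies at 15.9 to 20.1 CPM in all 6 KO libraries and at 45.3 to 102.5 CPM in the 6 WT libraries, and Npas2 lies above 13 CPM in every KO library and below 7 CPM in every WT library.

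Set per kilobase of exon, so that genes can be compared, the members spanned a wide range of levels. Exon lengths came from the GENCODE annotation of the older build, and levels are group means in CPM per kilobase. In KO cells with vehicle the order was Cry1 (14.3), Clock (7.20), Nr1d2 (6.58), Nr1d1 (5.91), Per1 (5.29), Tef (5.17), Per2 (3.60), Npas2 (2.78), Dbp (0.875) and Per3 (0.696). In WT cells with vehicle it was Nr1d1 (26.2), Nr1d2 (13.3), Cry1 (11.9), Per1 (8.70), Tef (7.25), Clock (6.27), Per2 (2.49), Dbp (1.503), Npas2 (0.763) and Per3 (0.579). Nr1d1, a repressor of the loop, thus stood at the top of the order in WT cells and in its middle in KO cells, and Npas2 and Dbp changed places near the bottom. By library, Nr1d1 overlapped with its neighbours Nr1d2, Per1 and Tef in KO cells, as did Dbp with Per3. In WT cells Nr1d2 overlapped with Cry1, and Per1 with Tef. Dbp and Npas2 rested on few reads, 29 to 98 and 56 to 240 counts per library.

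The first comparison asked how the clock genes of KO cells differed from those of WT cells with vehicle. The REV-ERB genes, the PAR bZIP genes and Per1 fell in KO cells, while Npas2, Per2, Cry1 and Clock rose. Nr1d1 fell to 22.6% of the WT level and Npas2 rose 3.65-fold. In all, 4 members rose, 5 fell and 1, Per3, did not pass, by edgeR's quasi-likelihood test at an adjusted p of 0.05 over all genes. By the same rule 54.5% of all tested genes were called, with 27.5% higher and 26.9% lower, so the members' 9 of 10 stands beside a high background. The libraries of KO and WT cells did not overlap for 9 members, against 63.1% of all genes. With the mean level of Kupffer, endothelial and stellate markers as a covariate, 9 members passed as well, where 8875 of all genes did. The median log2 fold change was -0.143 over the members and -0.002 over all genes. The median size of the change, whatever its sign, was 0.625 over the members and 0.358 over all genes. The members were chosen with earlier results of these data known, so these comparisons with all genes are descriptions.

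Of the activators that pair with BMAL1, Npas2 differed most. It had 13.5, 13.1 and 13.4 CPM in KO cells, against 3.24, 4.42 and 3.31 CPM in WT cells with vehicle. Every KO library was thus above every WT library, and the KO libraries lay close together, at 226 to 240 counts. Sampling of reads alone usually leaves counts of this size further apart, so the closeness is not read as a trait of KO cells. The log2 fold change was 1.87 ± 0.22 (SE, n = 3 per group), with an adjusted p of 1.2e-05 by edgeR. Clock, its more abundant relative, had 98.9, 98.2 and 99.4 CPM in KO cells, against 90.9, 87.0 and 80.1 CPM in WT cells. Those groups did not overlap either, but the difference was small, 0.20 ± 0.07 on the log2 scale (adjusted p of 0.0204 by edgeR). The Clock call was lost when any 1 of 5 libraries was left out, with log2 fold changes of 0.16 without KO with MJ041 replicate 3, 0.16 without KO with vehicle replicate 1, 0.16 without KO with vehicle replicate 3, 0.17 without WT with vehicle replicate 2 and 0.12 without WT with vehicle replicate 3.

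The Per and Cry genes encode the repressors that close the loop, and they did not move as a group. Per1, which also responds quickly to hormones and cAMP, had 32.7, 24.4 and 32.2 CPM in KO cells, against 43.0, 46.9 and 57.1 CPM in WT cells with vehicle. Its fall of 0.72 ± 0.15 on the log2 scale had an adjusted p of 0.00108 by edgeR, and no KO library reached a WT library. Per2, its close relative, went the other way, with 22.2, 18.3 and 22.7 CPM in KO cells, against 14.3, 14.5 and 14.9 CPM in WT cells. Here every KO library was the higher one, and the log2 fold change was 0.53 ± 0.14 with an adjusted p of 0.00563 by edgeR. Per3, a less essential member of the family, had 6.51, 5.70 and 7.86 CPM in KO cells, against 5.23, 5.67 and 5.80 CPM in WT cells. The Per3 groups overlapped, and its log2 fold change of 0.27 ± 0.15 did not pass, with an adjusted p of 0.164 by edgeR. Cry1, a cryptochrome and strong repressor of BMAL1, had 51.4, 46.8 and 45.0 CPM in KO cells, against 36.9, 42.7 and 39.9 CPM in WT cells. These groups lay apart by a small margin, with a log2 fold change of 0.26 ± 0.08 and an adjusted p of 0.0154 by edgeR. The Cry1 call was lost without KO with vehicle replicate 1 (0.17), WT with vehicle replicate 1 (0.20) or WT with vehicle replicate 3 (0.23).

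The REV-ERB genes held the largest fall among the members. Nr1d1 had 15.9, 18.5 and 20.1 CPM in KO cells, against 59.5, 79.8 and 102.5 CPM in WT cells with vehicle. The WT libraries spread widely, yet the lowest was far above the highest KO library. The log2 fold change was -2.15 ± 0.23, with an adjusted p of 6.62e-06 by edgeR. Nr1d2, which acts with Nr1d1 as a repressor of Arntl, had 35.0, 35.2 and 36.6 CPM in KO cells, against 66.4, 75.5 and 74.3 CPM in WT cells. It fell to 49.4% of the WT level, with a log2 fold change of -1.02 ± 0.09 and an adjusted p of 1.53e-06 by edgeR. Exons of Nr1d1 and of Thra, a thyroid hormone receptor gene on the opposite strand, share 263 bases in the GENCODE annotation, and the strand setting of the counting is not given in the sources used here. Thra moved the other way, with 16.7 ± 0.742 CPM in KO cells and 13.2 ± 1.39 CPM in WT cells (SD, n = 3 each).

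The PAR bZIP genes are outputs that carry the rhythm to D-boxes in metabolic genes. Tef had 41.4, 37.4 and 43.3 CPM in KO cells, against 54.0, 60.1 and 57.0 CPM in WT cells with vehicle. No KO library reached a WT library, and Tef fell by 0.49 ± 0.11 on the log2 scale, with an adjusted p of 0.00185 by edgeR. Dbp, a strongly rhythmic gene in liver, had 1.66, 2.96 and 3.23 CPM in KO cells, against 4.32, 3.76 and 5.41 CPM in WT cells. Its log2 fold change was -0.78 ± 0.27, with an adjusted p of 0.0245 by edgeR, and the call was lost without KO with vehicle replicate 1 (-0.57) or WT with vehicle replicate 3 (-0.66). Dbp shares 539 exon bases with Sphk2, a sphingosine kinase gene on the opposite strand that had 34.0 ± 4.14 CPM in KO cells and 38.5 ± 2.62 CPM in WT cells (SD, n = 3 each). The libraries were stranded, per the labels. Without a stated strand setting of the counting, it is not known how reads in those bases were assigned to Dbp or Sphk2.

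**Figure D2:**
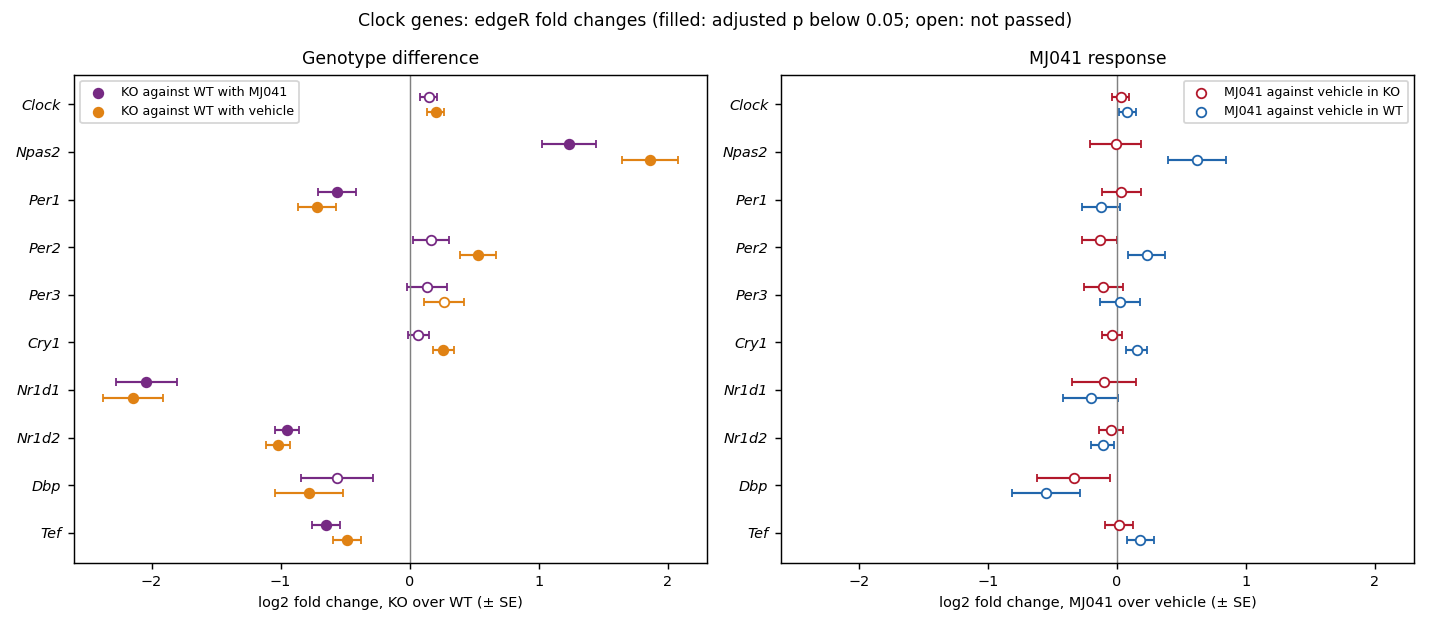
Log2 fold changes of the 10 clock genes with SE bars, KO over WT with MJ041 and with vehicle on the left, MJ041 over vehicle in KO and in WT cells on the right. Filled points passed an adjusted p of 0.05 by edgeR; 5 genes passed with MJ041 and 9 with vehicle on the left, and no point is filled on the right.

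In the presence of MJ041 the same question was asked of KO against WT cells. Npas2 was again higher in KO cells, and Nr1d1, Nr1d2, Per1 and Tef were lower. These 5 members passed, 1 higher and 4 lower, where 54.4% of all tested genes were called (26.8% higher and 27.6% lower). The same 5 were the members whose KO and WT libraries did not overlap, against 59.2% of all genes. Both genotype comparisons use separate libraries, and Clock, Per2, Cry1 and Dbp passed with vehicle but not here. The difference between the genotype effects is the interaction given below, in which no member passed.

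Markers of other liver cells differed between these libraries too. Kupffer cell markers summed to 462 to 488 CPM in KO cells and 185 to 351 CPM in WT cells with MJ041, and stellate cell and fibroblast markers to 159 to 183 CPM in KO cells and 88.7 to 129 CPM in WT cells. Cholangiocyte markers summed to 459 to 673 CPM in KO cells and 297 to 413 CPM in WT cells. By these sums every KO library was above every WT library in the 3 lists. Endothelial marker sums overlapped, at 247 to 278 CPM in KO cells and 157 to 257 CPM in WT cells. The 10 cell cycle markers were all higher in KO cells, with sums of 653 to 995 CPM against 161 to 169 CPM in WT cells. Mpeg1 made up most of the Kupffer sum in KO cells, at 281 CPM against 78.9 CPM in WT cells. Cd68 went the other way, at 66.2 and 111 CPM. Of the 11 Kupffer markers 2 were higher in KO cells, 1 was lower and 8 did not pass, with 10 positive log2 fold changes. Over all tested genes 26.8% were higher and 27.6% lower, so the markers were not called more often than other genes. By mean log2 CPM the Kupffer groups overlapped, with WT replicate 3 at 3.794 and KO libraries at 3.685 to 3.875. With the mean level of the Kupffer, endothelial and stellate markers as a covariate the same 5 members passed, and Dbp passed as well. Of all genes, 7460 passed in that fit. The part of cholangiocyte markers and of cell division was not tested.

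Npas2 had 13.4, 13.1 and 13.3 CPM in KO cells with MJ041, against 6.61, 6.96 and 3.31 CPM in WT cells with MJ041. The KO libraries held 227 to 228 counts, again closer than sampling of reads usually gives, while WT replicate 3 was well below the other 2 WT libraries. The log2 fold change was 1.24 ± 0.21, with an adjusted p of 2.6e-04 by edgeR. Nr1d1 had 17.2, 17.5 and 16.3 CPM in KO cells, against 89.0, 45.3 and 75.9 CPM in WT cells, a log2 fold change of -2.04 ± 0.24 (adjusted p of 1.07e-05 by edgeR). Nr1d2 had 35.7, 33.7 and 34.0 CPM in KO cells, against 78.3, 58.9 and 63.0 CPM in WT cells, a log2 fold change of -0.95 ± 0.09. For both REV-ERB genes the WT library of replicate 2 was the lowest of its group and still above every KO library. Tef had 48.9, 34.3 and 40.4 CPM in KO cells, against 69.3, 63.5 and 61.1 CPM in WT cells, and fell by 0.65 ± 0.11 on the log2 scale. Per1 had 34.4, 27.6 and 29.5 CPM in KO cells, against 51.7, 37.3 and 46.0 CPM in WT cells, and fell by 0.56 ± 0.15.

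The other 5 members overlapped between genotypes with MJ041. Per2 had 23.9, 15.3 and 18.5 CPM in KO cells, against 16.2, 18.1 and 17.0 CPM in WT cells, so that the KO libraries spanned the WT ones. Its log2 fold change of 0.17 ± 0.14 had an adjusted p of 0.328 by edgeR. Those of Clock (0.15 ± 0.07), Per3 (0.14 ± 0.16), Cry1 (0.07 ± 0.08) and Dbp (-0.56 ± 0.28) had adjusted p of 0.0722, 0.486, 0.51 and 0.106 by edgeR, in that order. Clock passed when WT with MJ041 replicate 2, its highest WT library at 100 CPM, was left out (0.20). Clock also passed with libraries scaled by their totals alone (0.22), and Dbp passed with the covariate of Kupffer, endothelial and stellate markers (-1.02).

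The next comparison asked whether MJ041 changed the clock genes of WT cells. No member passed by edgeR at an adjusted p of 0.05, where 2.21% of all tested genes did. At an unadjusted p below 0.05 there was 1 member, Npas2, against 21.6% of all genes. The libraries with MJ041 and with vehicle did not overlap for 2 members, Per2 and Tef, against 22.3% of all genes. Tested by limma voom and by DESeq2, no member passed either. Per2 had 16.2, 18.1 and 17.0 CPM with MJ041, against 14.3, 14.5 and 14.9 CPM with vehicle, a log2 fold change of 0.23 ± 0.14. Tef had 69.3, 63.5 and 61.1 CPM with MJ041, against 54.0, 60.1 and 57.0 CPM with vehicle, a log2 fold change of 0.18 ± 0.11. Their adjusted p were 0.375 and 0.352 by edgeR. The median log2 fold change was 0.054 over the members and 0.026 over all genes.

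Npas2 in WT cells depended on which library was read. It had 6.61, 6.96 and 3.31 CPM with MJ041, against 3.24, 4.42 and 3.31 CPM with vehicle. In 2 MJ041 libraries it was above every vehicle library, and in replicate 3 it was at the vehicle level. The log2 fold change of 0.62 ± 0.23 did not pass, with an adjusted p of 0.145 by edgeR. Without WT with MJ041 replicate 3 it was 0.89, with an adjusted p of 0.0028 by edgeR, in a fit that called 2059 of all genes where 329 were called with all libraries. Over its 21 alternatives the adjusted p of Npas2 ran between 0.0028 and 0.997. The same 3 libraries differed in markers of other liver cells. Their Kupffer cell markers summed to 185, 222 and 351 CPM with MJ041, against 293, 239 and 480 CPM with vehicle. Their stellate cell and fibroblast markers summed to 88.7, 95.8 and 129 CPM with MJ041, against 140, 129 and 147 CPM with vehicle. With the mean level of Kupffer, endothelial and stellate markers as a covariate, the log2 fold change of Npas2 was 0.28 (adjusted p of 0.501 by edgeR). No gene of all those tested passed in that fit.

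**Figure D3:**
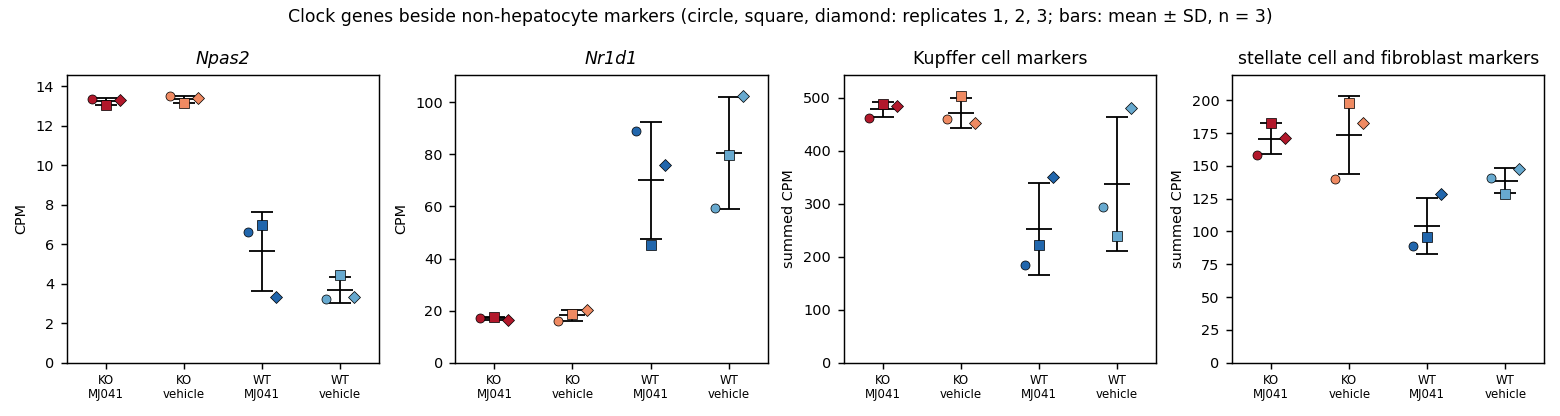
Npas2 and Nr1d1 in CPM beside the summed CPM of Kupffer cell and of stellate cell and fibroblast markers, by library, with mean ± SD (n = 3). Within WT cells with MJ041, replicate 3 (diamond) is the lowest for Npas2 at 3.31 CPM and the highest for both marker sums, at 351 and 129 CPM.

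The other members in WT cells showed no change that passed. Dbp had 2.78, 2.52 and 3.90 CPM with MJ041, against 4.32, 3.76 and 5.41 CPM with vehicle, and its groups overlapped by 1 library. Its log2 fold change of -0.55 ± 0.26 had an adjusted p of 0.249 by edgeR. Nr1d1 had 89.0, 45.3 and 75.9 CPM with MJ041, against 59.5, 79.8 and 102.5 CPM with vehicle, and the wide spread of both groups left a log2 fold change of -0.20 ± 0.21. Values for Cry1 (0.16 ± 0.08), Per1 (-0.12 ± 0.14), Nr1d2 (-0.11 ± 0.09), Clock (0.08 ± 0.07) and Per3 (0.03 ± 0.16) were each less than 2 times their SE.

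In KO cells MJ041 was set against vehicle in the same way. No member passed by edgeR, none had an unadjusted p below 0.05, none passed by limma voom or DESeq2, and the libraries of all 10 members overlapped. Over all genes, 0 passed, 2.77% had an unadjusted p below 0.05, and 9.51% did not overlap. The log2 fold changes lay between -0.33 ± 0.28 (Dbp) and 0.03 ± 0.15 (Per1). Npas2, at 13.4, 13.1 and 13.3 CPM with MJ041 and 13.5, 13.1 and 13.4 CPM with vehicle, had a log2 fold change of -0.01 ± 0.20. Nr1d1, at 17.2, 17.5 and 16.3 CPM with MJ041 and 15.9, 18.5 and 20.1 CPM with vehicle, had one of -0.10 ± 0.25.

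Whether the response to MJ041 differed between genotypes was tested by the interaction, the response in KO cells minus that in WT cells. No member and no gene passed by edgeR, and 13.3% of all genes, but no member, had an unadjusted p below 0.05. No member passed by limma voom or DESeq2, while DESeq2 called 227 of all genes and edgeR with no filter on low counts called 886. Npas2 came to -0.63 ± 0.30 with an adjusted p of 0.391, and Per2 to -0.36 ± 0.20 with an adjusted p of 0.448. Without WT with MJ041 replicate 3 the Npas2 interaction was -0.90 and passed, with an adjusted p of 0.0171 by edgeR, in a fit that called 852 of all genes. With the marker covariate it was -0.24 (adjusted p of 0.73 by edgeR), and over its 20 alternatives the adjusted p ran between 0.0171 and 0.973.

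Ratios within a library show the balance between members, free of the scaling of the library, and are given per kilobase of exon. They are descriptions, since they recombine values tested above. The ratio of Npas2 to Clock, the interchangeable partners of BMAL1, was 0.390, 0.383 and 0.386 in KO cells, against 0.102, 0.145 and 0.119 in WT cells with vehicle. Each KO ratio lay above every WT ratio. The ratio of Nr1d1, the repressor, to Arntl, its target, was 1.43, 1.66 and 1.87 in KO cells, against 10.1, 13.4 and 21.2 in WT cells with vehicle. Every KO library was below every WT library here. The ratio of Per1 to Per2 was 1.53, 1.39 and 1.48 in KO cells, against 3.13, 3.36 and 3.98 in WT cells. The ratio of Cry1 to Cry2, the paired cryptochromes, was 3.09, 2.87 and 2.66 in KO cells, against 1.31, 1.47 and 1.47 in WT cells. The ratio of Nr1d1 to Nr1d2 was 0.799, 0.925 and 0.967 in KO cells, against 1.58, 1.86 and 2.43 in WT cells with vehicle, again apart. The ratio of Dbp to Tef was 0.105, 0.209 and 0.196 in KO cells, against 0.210, 0.164 and 0.250 in WT cells with vehicle, and here the groups overlapped. With MJ041 the KO and WT libraries overlapped for Dbp to Tef and were apart in the other ratios, with Npas2 to Clock at 0.364 to 0.390 in KO cells and 0.110 to 0.219 in WT cells.

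**Figure D4:**
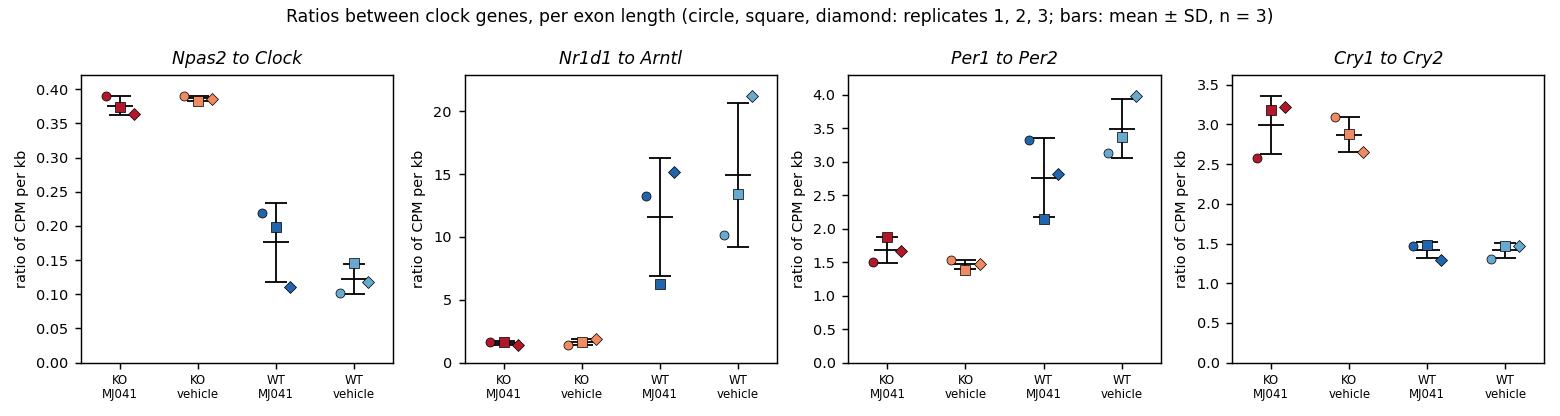
Ratios of CPM per kilobase of exon within each library, for Npas2 to Clock, Nr1d1 to Arntl, Per1 to Per2 and Cry1 to Cry2, with mean ± SD (n = 3) and axes from 0. KO libraries lie above WT libraries for Npas2 to Clock and Cry1 to Cry2, and below them for Nr1d1 to Arntl and Per1 to Per2.

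Other genes of the loop were read from a list of 19, of which 18 were tested and Rorb was not. In KO cells with vehicle 6 rose, 6 fell and 6 did not pass, where 27.5% of all genes were higher and 26.9% lower. The median log2 fold change of the list was 0.09, against -0.002 over all genes. Its median size, whatever the sign, was 0.404, against 0.358 over all genes. Arntl, the gene of BMAL1 and the main target of the REV-ERBs, had 27.3, 27.3 and 26.3 CPM in KO cells, against 14.4, 14.6 and 11.8 CPM in WT cells with vehicle. Its log2 fold change was 0.99 ± 0.12, with an adjusted p of 2.16e-05 by edgeR, and the groups did not overlap. Hlf, the third PAR bZIP gene beside Dbp and Tef, rose where they fell, with 12.4, 9.94 and 10.3 CPM in KO cells, against 4.04, 4.95 and 5.69 CPM in WT cells. Cry2, the second cryptochrome, fell where Cry1 rose, with 31.5, 30.8 and 32.1 CPM in KO cells, against 53.4, 55.0 and 51.5 CPM in WT cells. Fbxw11, a ubiquitin ligase subunit that takes part in PER turnover, fell by 0.35 ± 0.05 on the log2 scale.

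The same list gave 4 genes higher and 5 lower in KO cells with MJ041, where 26.8% of all genes were higher and 27.6% lower, with a median of -0.015, against 0.022 over all genes. The 4 genes named above passed there too, with Arntl at 0.80, Hlf at 0.73, Cry2 at -0.99 and Fbxw11 at -0.34. No gene of the list passed for MJ041 against vehicle by edgeR in either genotype, and 6 in WT cells and 0 in KO cells had an unadjusted p below 0.05, against 21.6% and 2.77% of all genes.

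**Figure D5:**
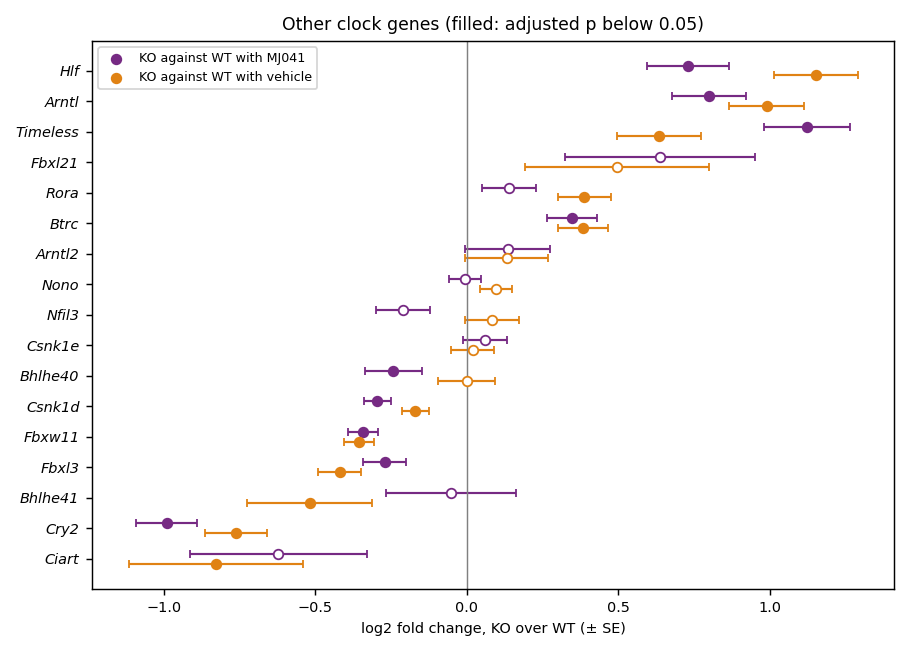
Log2 fold changes with SE bars of the other clock genes reported here, KO over WT with MJ041 and with vehicle, ordered by the value with vehicle; filled points passed an adjusted p of 0.05 by edgeR. With vehicle, Hlf at 1.15 and Arntl at 0.99 stand at the top, and Cry2 at -0.76 lies near the bottom.

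Genes that the liver clock is known to time were read from a list of 22, of which 21 were tested and Elovl3 was not. In KO cells with vehicle 4 rose and 13 fell, against 27.5% higher and 26.9% lower of all genes, with a median log2 fold change of -0.36. With MJ041 the counts were again 4 and 13, against 26.8% and 27.6% of all genes, with a median of -0.46. Nr1i3, the gene of the xenobiotic receptor CAR and a target of PAR bZIP factors, had 0.190 ± 0.0869 CPM in KO cells and 3.68 ± 0.838 CPM in WT cells with vehicle (SD, n = 3 each), a log2 fold change of -4.23 ± 0.33. Cyp2a5, a cytochrome P450 that PAR bZIP factors drive, fell by 2.75 ± 0.27 on the log2 scale. Avpr1a, a vasopressin receptor gene, rose by 2.36 ± 0.22, and Fmo5, a flavin monooxygenase gene, rose by 1.41 ± 0.20. Whether the genes of this list differed through clock factors or through the loss of Hnf4a by other routes was not tested. No gene of this list passed for MJ041 against vehicle by edgeR in either genotype, and 4 in WT cells and 2 in KO cells had an unadjusted p below 0.05, where 21.6% and 2.77% of all genes did.

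Glucocorticoids and cAMP reset the clock by way of Per1 and related genes, so lists of genes of their responses were read beside it. Of 13 genes of the glucocorticoid response, the gene of the receptor among them, 3 rose and 6 fell in KO cells with vehicle. Their median log2 fold change was -0.17, and 27.5% of all genes were higher and 26.9% lower. Klf9, a transcription factor that is also rhythmic, fell by 0.94 ± 0.09 and Tat, a tyrosine aminotransferase, by 1.72 ± 0.28. Zbtb16, a zinc finger factor, rose by 1.19 ± 0.12 and Dusp1, a phosphatase of MAP kinases, by 0.49 ± 0.08. With MJ041, 3 of this list were higher and 7 lower in KO cells, against 26.8% and 27.6% of all genes. Zbtb16 was the 1 gene of the list that passed for MJ041 in WT cells, with 14.3, 18.2 and 12.8 CPM with MJ041, against 9.78, 10.6 and 11.04 CPM with vehicle, a log2 fold change of 0.53 ± 0.12 and an adjusted p of 0.0475 by edgeR, where 2.21% of all genes passed. That call was lost in several fits, since no gene passed with the marker covariate or with only the 2 groups compared in the fit. Nor did any gene pass without KO with MJ041 replicate 3, KO with vehicle replicate 1 or 3, WT with MJ041 replicate 2 or WT with vehicle replicate 1. Whether Zbtb16 passed in the alternatives that called genes was not read.

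Of 14 cAMP and immediate early genes, 13 were tested, and 3 rose and 8 fell in KO cells with vehicle, with a median log2 fold change of -0.37, where 27.5% of all genes were higher and 26.9% lower. Jun, Ier2 and Fosb, early response genes, fell by 0.79 ± 0.10, 0.73 ± 0.10 and 1.46 ± 0.26 on the log2 scale, and Id1, an inhibitor of bHLH factors, rose by 0.72 ± 0.14. With MJ041 the list had 3 genes higher and 3 lower in KO cells, against 26.8% and 27.6% of all genes. No gene of this list passed for MJ041 against vehicle by edgeR in either genotype, and 4 in WT cells and 1 in KO cells had an unadjusted p below 0.05, against 21.6% and 2.77% over all genes.

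The pattern of each member over the 12 libraries was also matched to those of other genes. Likeness was the root mean square (RMS) difference between log2 CPM profiles, each centred on its own mean, among 10227 genes that averaged 5 CPM or more and had a named symbol (10228 for Dbp). The nearest to Nr1d1 were Hpd (0.20), Cish (0.21) and Hacl1 (0.22), where the RMS spread of Nr1d1 itself was 1.06. The nearest to Npas2 were Ugt2b34 (0.13), Slc25a23 (0.17) and Ugt1a1 (0.18), with 0.85 for Npas2 itself. Nr1d2 was nearest to Atg14, Itpkc and Arrdc4 (0.07 to 0.08, with 0.50 for itself), Tef to Itih1, Ezh1 and Rdh14, and Per1 to Kdm6b, Tmem140 and Ppp1r15a. Per2 was nearest to Tet2, Carf and Pck2, Per3 to Lipe, Elmsan1 and Zc3h6, Cry1 to Mtor, Stt3b and Psme4, Clock to Uqcrb, Dlat and Cdk6, and Dbp to Areg, Fmnl2 and Ttc39c. Where the spread of the member is small, as for Clock at 0.12, many genes lie near it.

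Among the clock genes themselves the nearest pair of members was Clock and Cry1, at an RMS difference of 0.12. Per1 and Tef lay at 0.18, and Per2 and Per3 at 0.17. Across the roles, Nr1d1 and Npas2 were the farthest pair of members, at 1.88. Paired genes of 1 family were not each other's nearest in every case, with 0.53 between Per1 and Per2, 0.57 between Nr1d1 and Nr1d2, 0.75 between Clock and Npas2, and 0.43 between Dbp and Tef. All of these distances are descriptions over the same 12 libraries.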

How the data were processed

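RNA of 12 libraries of primary mouse hepatocytes was extracted with a column kit, made into TruSeq stranded libraries and read on an Element AVITI instrument, per the labels. The authors deposited raw counts per Ensembl gene, without normalization. The tools listed, with no role given, are Trimmomatic 0.34, FastQC, STAR 2.7.10b, featureCounts and DESeq2, with the genome build mm39, per the submitters' processing notes. The strand, multimapping and annotation settings of the counting are not given in the sources used here. Depth was 16740761 to 17902832 counts per library. Between libraries of 1 group, chi-square over its degrees of freedom was 4.62 to 15.5 over genes, so no library was a repeat of another.

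From these counts, R 4.3.3 with edgeR 4.0.16 kept 14919 genes by filterByExpr (minimum count of 10), scaled libraries by TMM and fitted 1 quasi-likelihood model with a coefficient per group. CPM uses the TMM-scaled totals. The SE of a log2 fold change is its size over the root of F. The p-values were adjusted by Benjamini-Hochberg over the 14919 genes, and 0.05 was the threshold. KO was set against WT with vehicle and with MJ041, as 2 of 5 comparisons, beside MJ041 against vehicle in WT and in KO and the interaction. The model was tested on simulated counts with known changes. Alternatives used RLE size factors, library totals, no filter, the compared groups alone, a replicate block, a covariate of cell type markers, fits that left out libraries, limma 3.58.1 (voom) and DESeq2 1.42.0.

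All 10 members were described whatever their values. In each list of other genes the 4 with the smallest adjusted p in KO against WT with vehicle were named, and for each member the 3 genes with the nearest profile. Of the other clock genes, 1 is counted but not reported here by name. The members and lists were chosen with earlier results of these data known. The reference annotation and the RefSeq promoter table are of build GRCm38, which is not the build of the counts, and gave only symbols (52081 of 55414 identifiers matched), exon lengths, exon overlaps and promoter sequences.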

Additional observations from a re-analysis of the deposited data

How the results depend on the processing

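Alternatives were run for the 10 members in all 5 comparisons. Over all genes, KO against WT with vehicle gave 8126 calls by edgeR and 8875 with the marker covariate. It gave 7389 to 8495 when 1 library was left out. For KO against WT with MJ041 these counts were 8118, 7460 and 7321 to 8216. The member counts below stand beside that high background. For KO against WT with vehicle, 9 members passed under each setting that kept all libraries and without the 2 WT libraries with MJ041 that were low in stellate markers, and 6 to 9 when 1 library was left out. Clock, Cry1 and Dbp were the members lost, and Npas2, Per1, Per2, Nr1d1, Nr1d2 and Tef passed in all 21 alternatives. For KO against WT with MJ041 the count was 5 or 6 throughout and 5 to 6 when 1 library was left out. The sixth was Clock with library totals (0.22) and without WT with MJ041 replicate 2 (0.20), or Dbp with the replicate block (-0.56) and the marker covariate (-1.02). The fit without both low-stellate libraries leaves 1 WT library with MJ041, and Clock had a log2 fold change of 0.22 there.

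For MJ041 in WT cells the count was 1 with no filter on low counts, where Npas2 had 0.63 and an adjusted p of 0.0206 by edgeR, and 0 to 1 when 1 library was left out, the 1 being Npas2 without WT with MJ041 replicate 3. The interaction gave 0 to 1 when 1 library was left out, again Npas2 without that library. For MJ041 in KO cells it was 0 in all alternatives, by edgeR, limma and DESeq2. The causes were not tested. Signs turned only among values that did not pass, in 13 of 200 fits for the interaction, 10 of 210 for MJ041 in KO cells, 6 of 210 for MJ041 in WT cells and 2 of 210 for KO against WT with MJ041. Over all genes, MJ041 in WT cells gave 329 calls by edgeR, 402 by limma voom, 649 with the replicate block, 906 by DESeq2 and 1667 with no filter. It gave 0 with the marker covariate and with only the groups compared, and 0 to 2059 when 1 library was left out, the highest without WT with MJ041 replicate 3. The interaction gave 0 by edgeR and limma voom, 227 by DESeq2 and 886 with no filter, and 0 to 852 when 1 library was left out, the highest again without that library. MJ041 in KO cells gave 0 apart from 15 with no filter. No setting moved the median of all genes by over 0.1. Fitting the interaction to only the groups compared is the same fit, since it uses all 4.

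The labels number replicates alike in each group. The deviations of libraries with the same number had correlations over genes of -0.05 to 0.16 for KO against WT with vehicle, -0.03 to 0.10 for KO against WT with MJ041, -0.01 to 0.50 for MJ041 in WT cells and 0.04 to 0.46 for MJ041 in KO cells. In no comparison was every pair over 0.1, so the numbers were not taken to pair the samples. For MJ041 in KO cells replicates 1, 2 and 3 had 0.349, 0.458 and 0.039, and unlike numbers had -0.436 to 0.111. For MJ041 in WT cells they had -0.01, 0.203 and 0.499, and unlike numbers had -0.53 to 0.445. A pairing of some of the numbers is therefore left undecided. With the replicate block 9, 6, 0, 0 and 0 members passed for KO against WT with vehicle, KO against WT with MJ041, MJ041 in WT, MJ041 in KO and the interaction. In that order, 8318, 8287, 649, 0 and 0 of all genes passed. Counts were lowest for Dbp, with 29 to 98 reads per library, Npas2 with 56 to 240 and Per3 with 83 to 141.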
